A study of Canis lupus familiaris with 30 samples.

Results

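NRAS, BRAF, MAP2K1, MAP2K2 and DUSP6 are 5 genes of the RAS, RAF and MEK pathway. They were taken by symbol from the deposited expression matrix, in which all 5 had an identifier among 32704 gene IDs. They were followed through 30 RNA-seq libraries of lymph nodes from 15 dogs with lymphoma, and all 5 passed the filter on low values that left 14257 genes for testing. The symbols came from the supplementary tables of the study, which name 5086 of the IDs, so only a part of the pathway could be named.

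In this pathway a RAS protein switched on by growth factor or antigen receptors binds GTP and activates a RAF kinase. RAF phosphorylates the MEK kinases, and MEK phosphorylates ERK, which enters the nucleus and changes transcription. Activating mutations of RAS and RAF genes are known in human lymphoid tumours, and in normal lymphocytes the same chain carries signals from the antigen receptors.

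NRAS encodes one of the RAS GTPases and BRAF one of the RAF kinases. MAP2K1 and MAP2K2 encode the kinases MEK1 and MEK2. DUSP6 encodes a phosphatase that removes phosphate from ERK. Its transcription is raised by ERK itself, so it belongs to the feedback arm of the chain.

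The dogs carried enlarged nodes with lymphoma typed by flow cytometry, and nodes were aspirated with a fine needle 6 weeks into CHOP treatment (six-week) and before it (initial). CHOP combines cyclophosphamide, doxorubicin, vincristine and prednisone, and dogs could enter after a single prednisone injection. By label, 3 dogs had T-cell lymphoma (dogs 028, 036 and 038), 7 had B-cell lymphoma (003, 027, 029, 030, 033, 034 and 037), and 5 were not typed (Unknown: 024, 025, 026, 031_032 and 035). Each dog gave 1 library at each timepoint. No healthy node was included, so the initial libraries are the baseline of the six-week ones. An aspirate holds every cell of the node, and fewer cells of a type cannot be told apart from less RNA per cell.

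Library totals ran between 4318394 and 43413353 counts, and the shallowest library was the six-week library of dog 036. Levels are given as FPKM, fragments scaled by transcript length and by the mapped fragments of the library. The FPKM of the six-week library of dog 033 summed to 2253170, and its genes lay at a median of −0.50 on the log2(FPKM+1) scale against the other dogs. Differences are on log2(FPKM+1) unless a count test (edgeR or DESeq2, log2 of counts) is named, and on that scale the change of a low gene is understated.

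Markers of lymphocytes went against the label in some libraries. The B-cell score was the mean log2(FPKM+1) of PAX5 and CD22, and the T-cell score that of CD3D, CD3E, CD5, LCK and ZAP70. The initial library of dog 038, labelled T-cell, scored 6.09 on the B-cell and 2.76 on the T-cell markers. Dog 029, labelled B-cell, scored 6.09 on the T-cell and 4.89 on the B-cell markers initially. The six-week library of dog 034, also labelled B-cell, scored 5.78 on the T-cell and 4.30 on the B-cell markers. Dog 034 stayed in the fits that left out dogs 029 and 038. The other T-cell libraries at the initial timepoint, of dogs 028 and 036, had B-cell scores of 1.74 and 0.73. The summed FPKM of the 2 B-cell markers with an ID, of 8 listed, ran between 1.42 and 135 in initial T-cell nodes and between 63.8 and 221 in initial B-cell nodes. That of the 5 T-cell markers with an ID, of 10 listed, ran between 33.1 and 662 in T-cell and between 23.9 and 399 in B-cell nodes. ZAP70 was listed at 0 in 1 library, and no other lymphocyte marker was at 0. The initial differences of DUSP6 and MAP2K1 are therefore given with and without dogs 029 and 038. For other results without these dogs, only values that turned sign and numbers of genes called are given. The DUSP6 change in T-cell pairs without both dogs is not given.

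NRAS had the highest FPKM of the 5 genes in 30 of 30 libraries. Its lowest, median and highest values were 26.8, 69.4 and 242 FPKM. DUSP6 was the most variable member, with a lowest value of 3.44, a median of 13.7 and a highest of 45.2 FPKM. The MEK gene MAP2K1 lay between 6.73 and 47.4 FPKM around a median of 18.2. BRAF was low and even, between 4.04 and 14.1 FPKM with a median of 8.31. MAP2K2 was the lowest of the 5 genes in 23 of 30 libraries, between 2.51 and 9.90 FPKM around a median of 6.33.

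The order of the lower members changed between libraries. MAP2K1 was above MAP2K2 in 30 of 30 libraries, above BRAF in 29 and above DUSP6 in 24. BRAF was above MAP2K2 in 25, and the medians of these neighbours in the order differed by less than the range of either gene. DUSP6 was the lowest member in 3 libraries.

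The order by FPKM depended on transcript length. In 18 libraries whose counts followed the FPKM, count and FPKM together implied a length of 0.614 kb for NRAS and 4.55 kb for MAP2K2 (medians). Scaled by library total and without length (CPM), the medians over these 18 libraries were 45.2 for DUSP6, 38.2 for NRAS, 33.6 for MAP2K2, 29.1 for MAP2K1 and 27.2 for BRAF. On that scale, which does not compare levels between genes per length, the 5 genes lay close together and DUSP6 came first.

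In the other 12 libraries, of dogs 024, 027, 028, 029, 030 and 035, the deposited counts did not follow the FPKM of the same gene IDs. The rank correlation of counts with FPKM over genes was 0.0868 to 0.117 there, against 0.880 to 0.983 in the 18 libraries. Under the BRAF ID these 12 libraries listed 587 to 7146 counts at 4.04 to 14.1 FPKM, and the 18 libraries listed 119 to 1105 counts at 6.00 to 12.95 FPKM. Under the MAP2K2 ID the counts were 3294 to 13054 in the 12 libraries and 65 to 1638 in the 18, at 2.51 to 9.53 and 2.77 to 9.90 FPKM. The mean FPKM of the 6 dogs ranked genes like that of the 9 dogs (rank correlation 0.978 over 14257 genes), while the counts did not (0.0959). FPKM was therefore used in all 30 libraries, and the count tests used the 18 only. The median FPKM of members still differed between the sets. In the 12 and the 18 libraries it was 9.42 and 17.5 for DUSP6, 4.64 and 7.28 for MAP2K2, and 14.2 and 20.1 for MAP2K1. For BRAF it was 7.07 and 8.84, and for NRAS 81.5 and 62.3. The sets hold different dogs, and the cause of these differences was not tested.

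**Figure D1:**
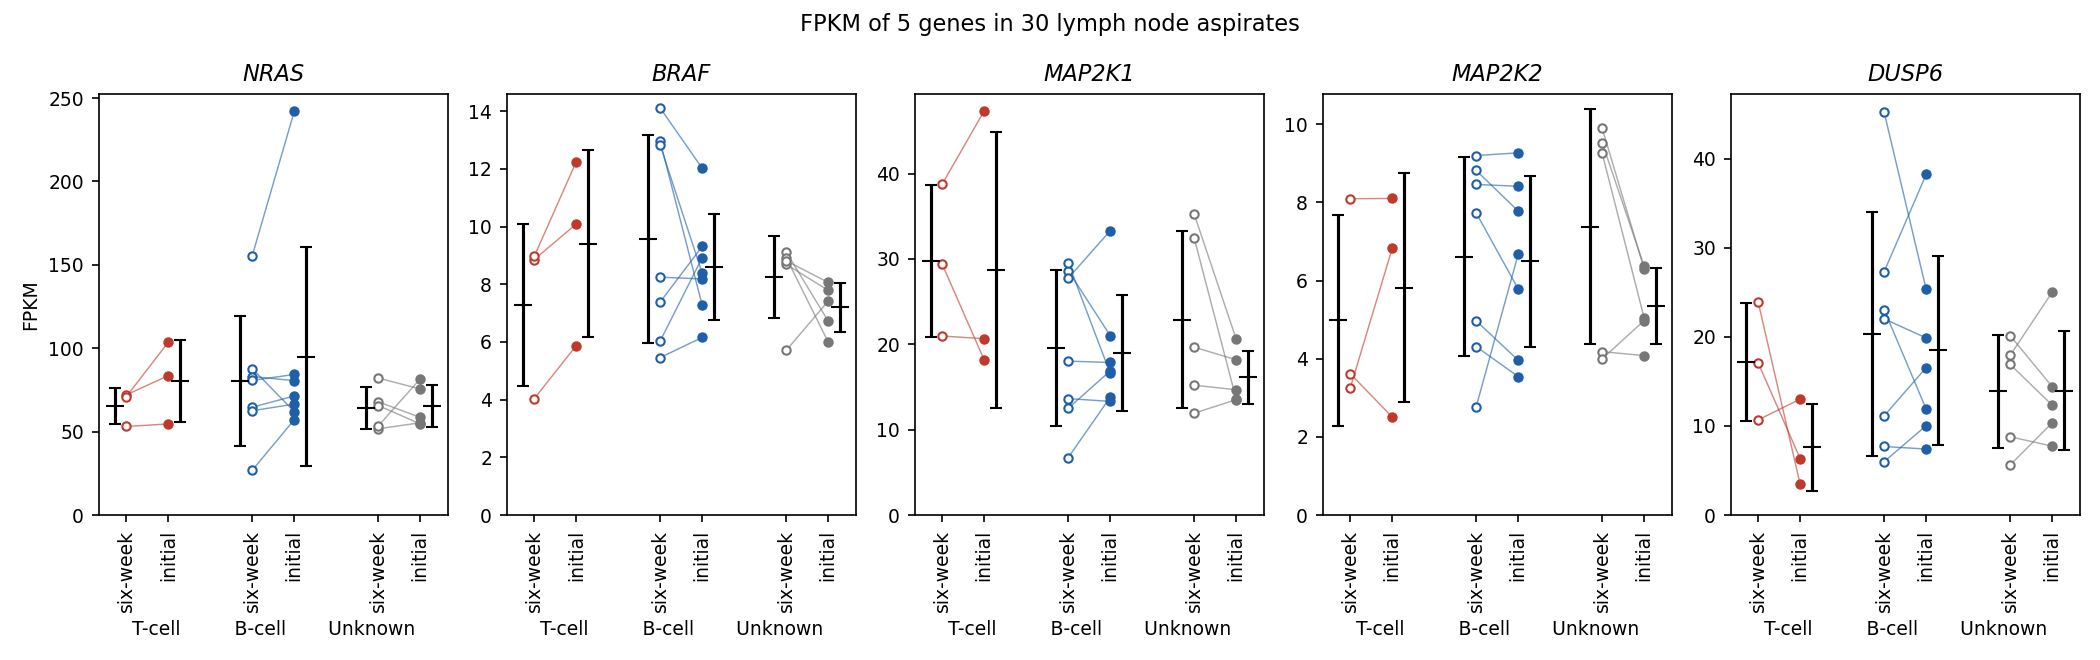
FPKM (vertical axes, linear, from 0) of the 5 genes in each library, by immunophenotype label and timepoint. Open points are six-week and filled points initial libraries, lines join the libraries of a dog, and the bars beside the points give the mean and SD over 3 T-cell, 7 B-cell or 5 Unknown dogs. The initial B-cell library at 242 FPKM of NRAS is that of dog 030.

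The first comparison set T-cell against B-cell nodes before treatment. Of 14257 genes, 49 passed an adjusted p of 0.05 in limma, which is 0.344% of all genes tested, and 0 of the 5 members were among them. The T-cell and B-cell nodes did not overlap in 4.36% of all genes, and in 0 of the 5 members. DUSP6 and MAP2K1 had the widest differences, in opposite directions.

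DUSP6 had 13.02, 3.44 and 6.33 FPKM in the initial T-cell nodes of dogs 028, 036 and 038. In the 7 initial B-cell nodes its lowest, median and highest values were 7.41, 16.6 and 38.3 FPKM. The T-cell nodes of dogs 036 and 038 lay below every B-cell node and that of dog 028 within their range, so the groups overlapped. The means were 7.59 ± 4.92 FPKM in T-cell and 18.5 ± 10.7 FPKM in B-cell nodes (SD, n = 3 and 7). The difference on the log2(FPKM+1) scale was −1.17 (SE 0.458, 95% interval −2.14 to −0.19, limma), and its adjusted p of 0.163 did not pass.

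Single libraries and tools moved this DUSP6 value. Without dog 036 the difference was −0.77 (adjusted p = 0.599), and without dogs 029 and 038 it was −1.08 (adjusted p = 0.189). In the 9 dogs whose counts followed FPKM, which hold 2 of the 3 T-cell dogs, it was −1.95 by FPKM (adjusted p = 0.0898). DESeq2 on the counts of these 9 dogs gave −2.30 (adjusted p = 0.00277) with 4.82% of its genes called. The edgeR test of the same counts gave −2.29 (adjusted p = 0.0932) with 0.0141% called.

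MAP2K1, which encodes MEK1, had 20.7, 47.4 and 18.2 FPKM in the initial T-cell nodes of dogs 028, 036 and 038. In the initial B-cell nodes it had a lowest value of 13.3, a median of 16.9 and a highest of 33.3 FPKM. Dog 036 was above every B-cell node, and the highest B-cell node was that of dog 029. The means were 28.7 ± 16.2 FPKM in T-cell and 18.97 ± 6.83 FPKM in B-cell nodes (SD, n = 3 and 7). The difference was 0.50 (SE 0.298, 95% interval −0.13 to 1.14, adjusted p = 0.328), and 0.09 without dog 036 (adjusted p = 0.925).

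Leaving out dogs 029 and 038 gave a MAP2K1 difference of 0.90 (SE 0.277, adjusted p = 0.0327). With these dogs left out 24.2% of all genes were called, so MAP2K1 was then 1 of many, and 2 T-cell dogs stood against 6 B-cell dogs. Dogs 029 and 038 were chosen for removal because of their lymphocyte markers, and MAP2K1 moved with those markers.

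Over the 30 libraries, MAP2K1 and the T-cell score had a Pearson correlation of 0.74 on the log2 scale. It was 0.72 in the 15 six-week and 0.80 in the 15 initial libraries. The 30 points are 15 dogs sampled at both timepoints, so they are not independent, and the value is a description. Dog 029, labelled B-cell, had 27.7 FPKM of MAP2K1 in the six-week and 33.3 FPKM in the initial library. Dog 025, of the Unknown group, had 32.5 FPKM in its six-week library, with a T-cell score of 6.12, and 13.6 FPKM in its initial library, with a T-cell score of 2.42. MAP2K1 also ran against the cell cycle score (MKI67, TOP2A, CDK1 and PCNA), with a correlation of −0.57. It shared this with BRAF (−0.54), DUSP6 (−0.46) and MAP2K2 (−0.35), while NRAS had 0.38. The part of cell composition in the MAP2K1 level was not tested.

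MAP2K2, which encodes MEK2, did not share the relation to the T-cell score, with a correlation of 0.14. Its initial levels were 2.51, 6.83 and 8.10 FPKM in T-cell dogs 028, 036 and 038, and 3.55, 6.67 and 9.27 FPKM (lowest, median, highest) in B-cell nodes. The ratio of MAP2K1 to MAP2K2 in FPKM was 8.23, 6.94 and 2.24 in the initial nodes of T-cell dogs 028, 036 and 038. In initial B-cell nodes it ran between 2.12 and 4.28. The ratio of dog 038 was inside the B-cell range, those of dogs 028 and 036 above it, and the highest of all libraries was 11.9 in the six-week library of dog 036.

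**Figure D2:**
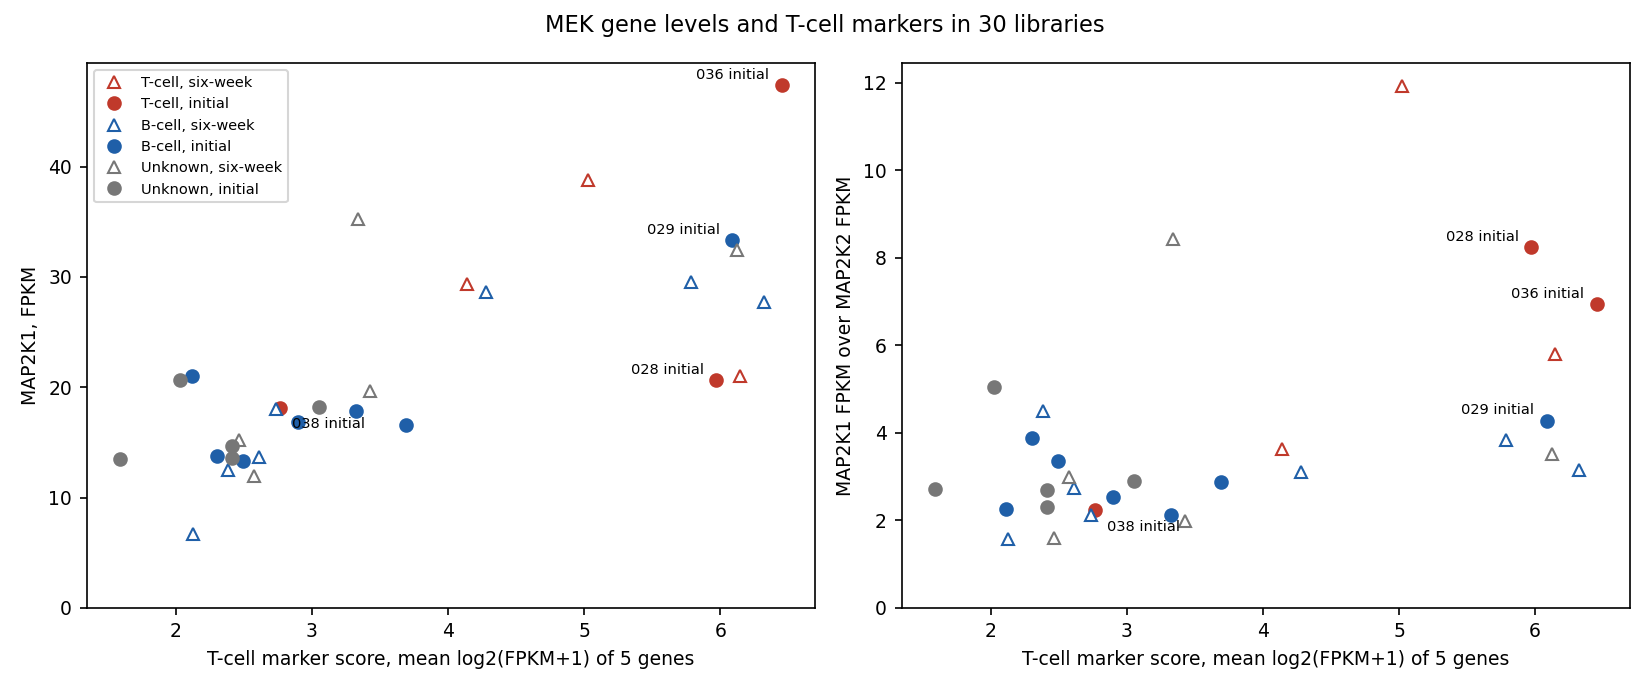
MAP2K1 level in FPKM (left) and the ratio of MAP2K1 to MAP2K2 FPKM (right) against the T-cell marker score, the mean log2(FPKM+1) of 5 genes, for 30 libraries. Colours give the label (T-cell, B-cell, Unknown), open triangles six-week and filled circles initial libraries, and 4 initial libraries are named. MAP2K1 was highest in the initial library of dog 036 at 47.4 FPKM, and the B-cell labelled dog 029 lies among the libraries with high T-cell scores.

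NRAS and BRAF did not differ by label beyond the test before treatment. NRAS had 83.6, 103.6 and 54.6 FPKM in the initial nodes of T-cell dogs 028, 036 and 038, against 57.2, 71.4 and 242 FPKM (lowest, median, highest) in B-cell nodes. BRAF had 5.88, 10.1 and 12.3 FPKM in the same T-cell nodes, against 6.16, 8.38 and 12.02 FPKM in B-cell nodes. The differences were −0.10 for NRAS (SE 0.356, adjusted p = 0.895), 0.08 for BRAF (SE 0.22, adjusted p = 0.844) and −0.19 for MAP2K2 (SE 0.312, adjusted p = 0.746). Their 95% intervals were −0.852 to 0.662, −0.383 to 0.552 and −0.856 to 0.472. Without dog 030 the NRAS value turned to 0.16 (adjusted p = 0.699), and without dog 038 to 0.16 (adjusted p = 0.816).

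At 6 weeks, none of the 5 members differed between T-cell and B-cell nodes beyond the test, with 0% of all genes called by limma (0 of 14257, and 1245 at an unadjusted p under 0.05). On the counts of the 9 dogs edgeR called 0 genes and DESeq2 called 12. MAP2K1 had 20.97, 38.8 and 29.4 FPKM in the T-cell nodes of dogs 028, 036 and 038, against 6.73, 18.03 and 29.6 FPKM (lowest, median, highest) in B-cell nodes. The highest of these B-cell nodes was that of dog 034, with a T-cell score of 5.78. The MAP2K1 difference of 0.69 had an interval of −0.23 to 1.60 (adjusted p = 0.633). The difference of DUSP6 was −0.02 with an interval of −1.15 to 1.11 (adjusted p = 0.993), so a difference of over 2-fold in either direction was not excluded by the interval.

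The next comparison followed each dog from the initial to the six-week node under CHOP. Over 15 pairs no member changed beyond the test, and limma called 0% of all genes (0 of 14257, and 1823 at an unadjusted p under 0.05). The edgeR test of 9 dogs also called 0 genes, and DESeq2 called 3832.

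NRAS was lower at 6 weeks in 10 of 15 dogs and, like BRAF, in 3 of 3 T-cell dogs. Of all genes, 43% had a positive mean change in T-cell pairs and 48.6% over all pairs. How many of all genes went the same way in as many dogs was not counted, here or below. NRAS averaged 71.9 ± 27.9 FPKM in six-week and 82.1 ± 46.5 FPKM in initial nodes (SD, n = 15 each). The mean paired difference was −0.16 (SE 0.105, 95% interval −0.38 to 0.065, adjusted p = 0.541). The lowest ratios were those of dogs 033, with 26.8 FPKM at 6 weeks against 57.2 FPKM initially, and 030, with 155.5 against 242 FPKM. The six-week library of dog 033 is the one whose genes lay low as a whole.

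BRAF averaged 8.68 ± 2.87 FPKM in six-week and 8.30 ± 1.97 FPKM in initial nodes (SD, n = 15 each), higher at 6 weeks in 8 of 15 dogs. Its paired difference was 0.03 (SE 0.107, 95% interval −0.20 to 0.25, adjusted p = 0.943). MAP2K1 averaged 22.7 ± 9.68 FPKM in six-week and 19.97 ± 9.08 FPKM in initial nodes. It was higher at 6 weeks in 10 of 15 dogs, by 0.13 on average (SE 0.136, 95% interval −0.15 to 0.42, adjusted p = 0.708). MAP2K2 was higher in 10 of 15 dogs, by 0.08 on average (SE 0.128, 95% interval −0.19 to 0.34, adjusted p = 0.839). For BRAF, MAP2K1 and MAP2K2 the intervals left out a mean change of 2-fold in either direction.

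DUSP6 varied most within dogs. Its SD within a dog was 0.622 on the log2 scale, near its SD between dog means of 0.676, and the corresponding values of NRAS were 0.297 and 0.493. It averaged 17.6 ± 10.3 FPKM in six-week and 14.8 ± 9.11 FPKM in initial nodes (SD, n = 15 each). The mean paired difference was 0.24 (SE 0.208, adjusted p = 0.653), and 9 of 15 dogs were higher at 6 weeks.

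Within T-cell pairs DUSP6 had the widest change of any member. Dog 036 had 23.9 FPKM at 6 weeks against 3.44 FPKM initially, and dog 038 had 17.1 against 6.33 FPKM. Dog 028 went the other way, with 10.7 FPKM at 6 weeks against 13.02 FPKM initially. Dogs 036 and 038 were the lowest initial libraries of DUSP6 among the T-cell and B-cell dogs, and all T-cell nodes at 6 weeks lay within the B-cell range of 5.99 to 45.2 FPKM. The mean change was 1.18 (SE 0.415, 95% interval 0.30 to 2.06), and with an adjusted p of 0.157 it did not pass. In this comparison limma called 0% of all genes (0 of 14257, and 2862 at an unadjusted p under 0.05), edgeR called 17 and DESeq2 3374.

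The libraries of dog 036 were the pair least like each other: their deviations from the group means had a correlation of −0.0564, the lowest of the 15 dogs. With 1 T-cell dog left out the DUSP6 change ran from 0.52 to 1.90. Leaving out dog 036 gave the lowest and leaving out dog 028 the highest value. Without dog 028 the DUSP6 change was 1.90 (adjusted p = 0.0152), with 10.5% of all genes called. Without dog 036 it was 0.52 (adjusted p = 0.737). On the counts of the 9 dogs, without dog 028, the change was 2.16 by DESeq2 (adjusted p = 0.00161, 10.7% of genes called). The change was 2.06 by edgeR (adjusted p = 0.0808, 0.109% called). Over all genes of each fit the median change was 0.873 by DESeq2 and −0.0744 by edgeR.

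The change in T-cell pairs was set against that in B-cell pairs. The difference in change of DUSP6 was 1.14 (SE 0.495, 95% interval 0.09 to 2.19, adjusted p = 0.30), with 0% of all genes called by limma (0 of 14257, and 2187 at an unadjusted p under 0.05). The edgeR test called 9 genes (0.0579%) and DESeq2 874. In B-cell pairs DUSP6 was higher at 6 weeks in 4 of 7 dogs, by 0.03 on average (SE 0.271, adjusted p = 0.985). The difference in change was 1.86 without dog 028 (adjusted p = 0.0408, 4.29% of genes called) and 1.96 by DESeq2 in 9 dogs (adjusted p = 0.0461, 2.77% called).

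Cell markers moved in the same T-cell pairs. In dog 036 the B-cell score was 4.25 at 6 weeks and 0.73 initially, and the T-cell score 5.02 and 6.45. In dog 038 the B-cell score was 4.49 at 6 weeks and 6.09 initially, and the T-cell score 4.14 and 2.76. Dog 028, in which DUSP6 did not rise, kept a B-cell score of 1.37 at 6 weeks and 1.74 initially. Over the T-cell pairs PECAM1 and KDR, of the stroma and endothelium list, had mean changes of 1.82 and 1.74. The plasma cell marker PRDM1 had 2.004, and the cell cycle marker MKI67 had −1.04. These were the widest changes of their lists, whose medians were 1.19 (stroma and endothelium), 1.73 (plasma cell) and −0.474 (cell cycle). PECAM1 did not follow KDR in every library, with 82.7 FPKM against 0.537 FPKM of KDR in the initial library of dog 035. The cell cycle medians of B-cell and Unknown pairs were −0.525 and −0.475. None of the named markers passed (adjusted p = 0.108, 0.119, 0.152 and 0.223, limma), and the part of cell composition in the DUSP6 change was not tested.

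**Figure D3:**
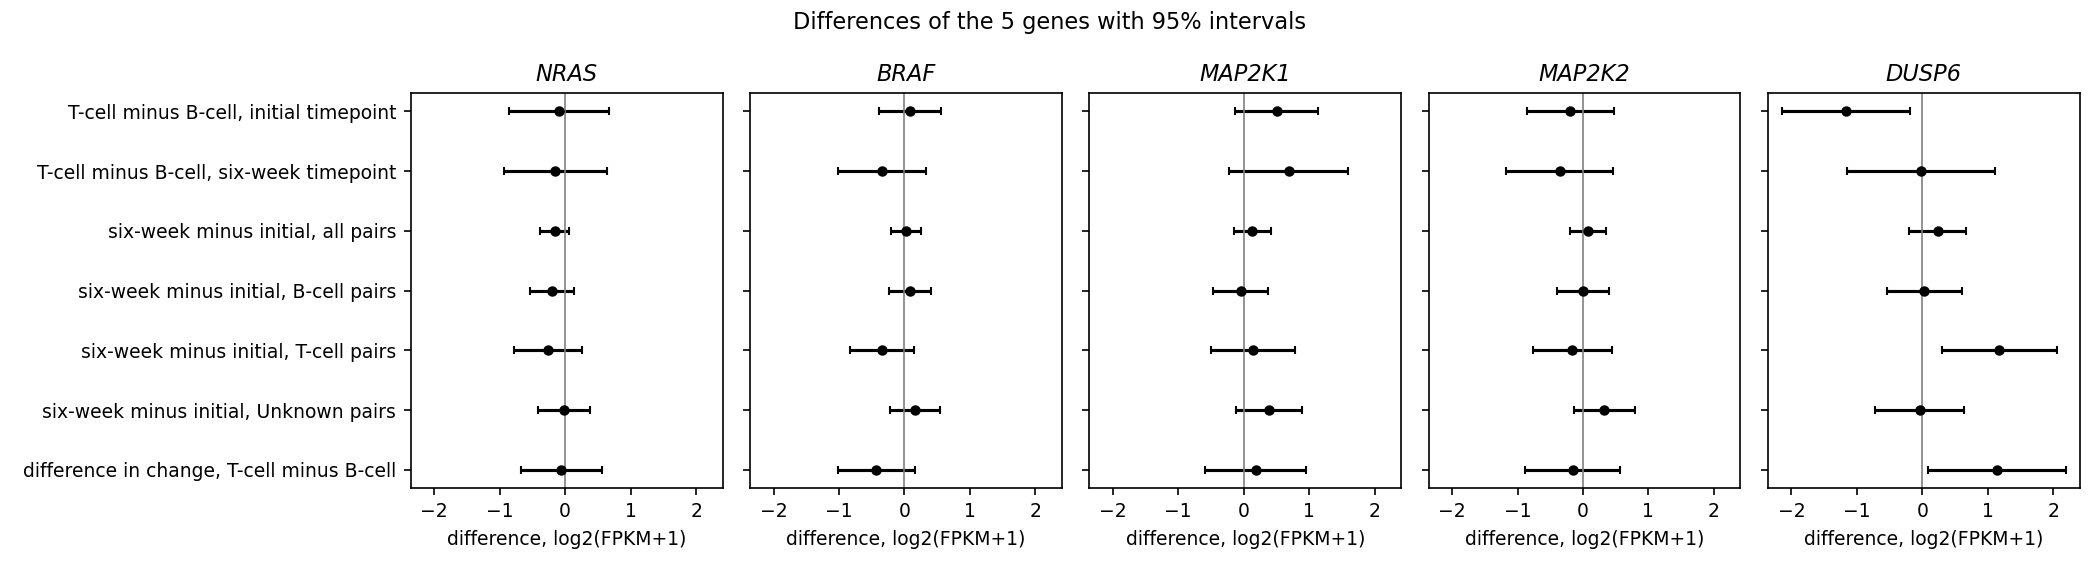
Differences of the 5 genes on the log2(FPKM+1) scale (horizontal axes) with 95% intervals from limma, for the 7 comparisons named on the left. Positive values mean higher in T-cell nodes, at 6 weeks or, in the bottom row, a larger change in T-cell pairs. The intervals of DUSP6 leave out 0 in 3 comparisons, before adjustment over 14257 genes, and every other interval holds 0.

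B-cell and Unknown pairs showed no member past the test, with 0% of all genes called in both by limma (0 of 14257, with 548 and 650 at an unadjusted p under 0.05). The edgeR test called 0 genes in both, and DESeq2 called 1 in B-cell and 100 in Unknown pairs. In Unknown pairs BRAF, MAP2K1 and MAP2K2 were each higher at 6 weeks in 4 of 5 dogs, by 0.16, 0.39 and 0.33 on average (adjusted p = 0.951 for each). Dog 035 was the dog that went the other way in all 3 genes. MAP2K1 of dog 025 had the largest ratio of any MAP2K1 pair, 2.39, with 32.5 FPKM at 6 weeks and 13.6 FPKM initially, and the deviations of its 2 libraries had a correlation of 0.0799, the next lowest after dog 036. That dog's neutrophil score (S100A8 and CSF3R) was 5.31 at 6 weeks and 1.35 initially.

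NRAS in dog 030 stood apart from all other nodes. That B-cell dog had 155.5 FPKM in its six-week and 242 FPKM in its initial library. The other 14 dogs lay between 26.8 and 87.8 FPKM at 6 weeks and between 54.6 and 103.6 FPKM initially. In B-cell nodes without dog 030, NRAS averaged 67.6 ± 22.4 FPKM at 6 weeks and 70.3 ± 10.6 FPKM initially (SD, n = 6 each). The other 4 members were not high in dog 030: it ranked between 7 and 14 of 15 dogs in its initial library and between 10 and 15 in its six-week library. Being the highest dog at both timepoints is not rare, since dog 030 was so for 3.02% of all genes.

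The genes beside NRAS were high in dog 030 as well. The order of genes on dog chromosome 17 was taken from RefSeq (assembly UU_Cfam_GSD_1.0), another assembly than the CanFam3.1 of the files, and used for order only. SIKE1 had 22.2 FPKM at 6 weeks in dog 030, against a median of 10.1 FPKM in 14 other dogs, and 40.4 against 9.90 FPKM initially. TRIM33, on the other side of NRAS, had 77.7 against 36.8 FPKM at 6 weeks and 118 against 39.8 FPKM initially. In both genes dog 030 was above every other dog at both timepoints.

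Along 128 named genes of chromosome 17 the levels of dog 030 changed in blocks. The limits of the blocks were chosen after the values were seen, so they are described without a test. Over 39 genes from TRIM33 to the last named gene, the median difference of dog 030 from the other dogs was 1.05 at 6 weeks, with 37 genes higher, and 1.62 initially, with 38 higher. The 14 other dogs had block medians of −0.69 to 0.52 at 6 weeks and −0.24 to 0.33 initially.

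Just before that block, 16 genes from MRPL19 to PTPN22 lay low in dog 030. Their median was −0.81 at 6 weeks, with 16 lower, and −0.70 initially, with 13 lower. A further 13 genes from RMND5A to GCFC2 were higher in 13 of 13 at both timepoints, with medians of 1.24 at 6 weeks and 1.34 initially. The first 60 named genes had medians of 0.07 at 6 weeks and −0.03 initially, near those of all 14257 genes in this dog, 0.08 and 0.06. All 3 blocks had the same sign at both timepoints. DNA copy number was not measured in these libraries.

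**Figure D4:**
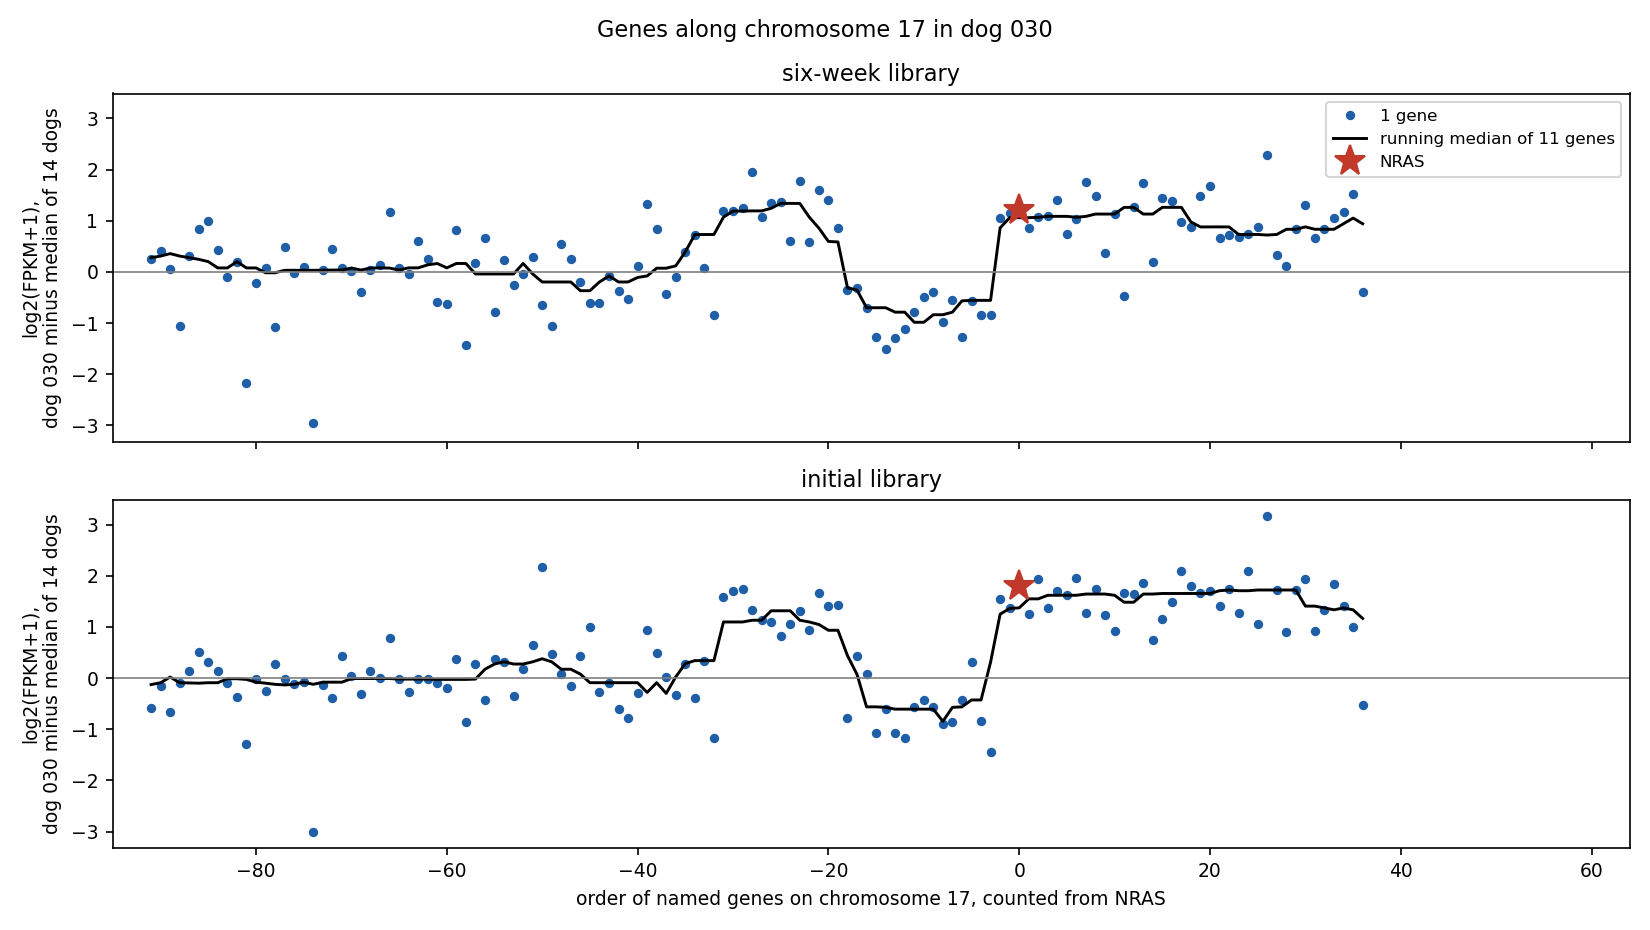
Difference of dog 030 from the median of 14 other dogs in log2(FPKM+1) for 128 named genes of chromosome 17, in the six-week (top) and initial library (bottom). The horizontal axis is the order of genes counted from NRAS (star), not distance, and the line is the running median of 11 genes. Genes from TRIM33 onward lie near 1.05 at 6 weeks and 1.62 initially, next to a block near −0.81 and −0.70.

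The genes whose levels most resembled each member were found by Pearson correlation of log2(FPKM+1) over 30 libraries among 3922 named genes. For NRAS they were GDAP2 (0.90), SIKE1 (0.87) and TRIM33 (0.85), all of the chromosome 17 block described for dog 030. Without dog 030 these values were 0.77, 0.72 and 0.65. For BRAF they were ZNF395, ANKS1A and ILRUN, each at 0.84. For MAP2K1 they were UBE2Q2 (0.81), ENPP5 (0.80) and ACBD3 (0.79). For MAP2K2 they included MPRIP (0.92) and BAHD1 (0.91). For DUSP6 they were RASSF4 (0.73), THNSL1 (0.72) and FSCN1 (0.71), of which FSCN1 encodes the actin bundling protein fascin. These correlations share dogs and library scale and are descriptions.

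Among the members themselves BRAF and MAP2K2 ran most closely together, with a correlation of 0.63. BRAF and MAP2K1 had 0.44, and the 2 MEK genes 0.30. NRAS ran with none of the others, at −0.25 to 0.02. Among genes of the pathway DUSP6 was nearest to DUSP2 (0.68), another phosphatase gene of the family, and to the ERK target gene ETV5 (0.48).

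The rest of the pathway was read from 55 listed genes, of which 23 had an ID and 21 passed the filter. None of the 21 passed the test in either direction in any of the 7 comparisons. Before treatment, 6 were higher and 15 lower in T-cell than in B-cell nodes, with a median difference of −0.41 beside −0.04 over all genes, of which 47.4% had a positive difference. The smallest unadjusted p values were those of RASGRP1, RASA3 and GAB2. RASGRP1, a RAS exchange factor that acts downstream of the T-cell receptor, differed by 0.81 (SE 0.339, adjusted p = 0.185). RASA3, which turns RAS off, differed by −1.14 (SE 0.525, adjusted p = 0.22), and the adaptor gene GAB2 by 0.40 (SE 0.189, adjusted p = 0.232). At 6 weeks MYC (−1.07, adjusted p = 0.539) and RASA1 (−0.66, adjusted p = 0.578) were among the 3 genes with the smallest p.

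Over all 15 pairs the feedback inhibitor genes had positive values at 6 weeks. All 5 that were tested, SPRED1, DUSP1, DUSP2, DUSP4 and DUSP10, were positive, with a median of 0.44 beside −0.01 over all genes, and 4 of the 5 had an unadjusted p under 0.05, as had 1823 of all 14257 genes. Of all genes, 48.6% had a positive value in this comparison. Over the same pairs the T-cell markers were positive in 5 of 5 (median 0.70, 3 with an unadjusted p under 0.05), the stroma and endothelium markers in 5 of 5 (median 0.31, 2 under 0.05), and the cell cycle markers negative in 4 of 4 (median −0.48, 4 under 0.05). None of these markers passed the adjusted test, and their part in the values of the feedback genes was not tested. SPRED1, which encodes an inhibitor of RAS and RAF signalling, averaged 4.49 ± 3.22 FPKM in six-week and 2.06 ± 1.53 FPKM in initial nodes and was higher in 13 of 15 dogs (0.70, SE 0.191, adjusted p = 0.298). DUSP4 averaged 1.42 ± 1.39 and 0.653 ± 0.642 FPKM and was higher in 14 of 15 dogs (0.44, SE 0.133, adjusted p = 0.298). The ERK target gene ETV5, a transcription factor, averaged 2.36 ± 1.51 FPKM at 6 weeks and 1.25 ± 1.02 FPKM initially, higher in 14 of 15 dogs (0.54, SE 0.139, adjusted p = 0.276). The share of all genes higher in 13 or 14 of 15 dogs was not counted. SPRED1, DUSP4 and ETV5 had low levels, where a pseudocount of 1 shrinks a fold change most. In B-cell pairs the 3 genes with the smallest p were DUSP4 (0.54), EGR1 (0.48) and ETV5 (0.42), and in Unknown pairs ETV5 (0.60), SPRED1 (0.61) and DUSP1 (0.49), with adjusted p of 0.935 in the B-cell and 0.951 in the Unknown pairs for each.

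In T-cell pairs RASGRP1 had the smallest p of the list, with a change of −1.47 (SE 0.311, adjusted p = 0.107) and lower values at 6 weeks in 3 of 3 dogs. DUSP1 had a value of 1.08 (SE 0.342, adjusted p = 0.134), higher in 3 of 3. The share of all genes that went the same way in 3 of 3 dogs was not counted. In the difference in change between T-cell and B-cell pairs RASGRP1 (−1.39, adjusted p = 0.174) and PEBP1 (0.73, adjusted p = 0.257) had the smallest p. PEBP1 encodes a protein that binds and inhibits RAF.

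**Figure D5:**
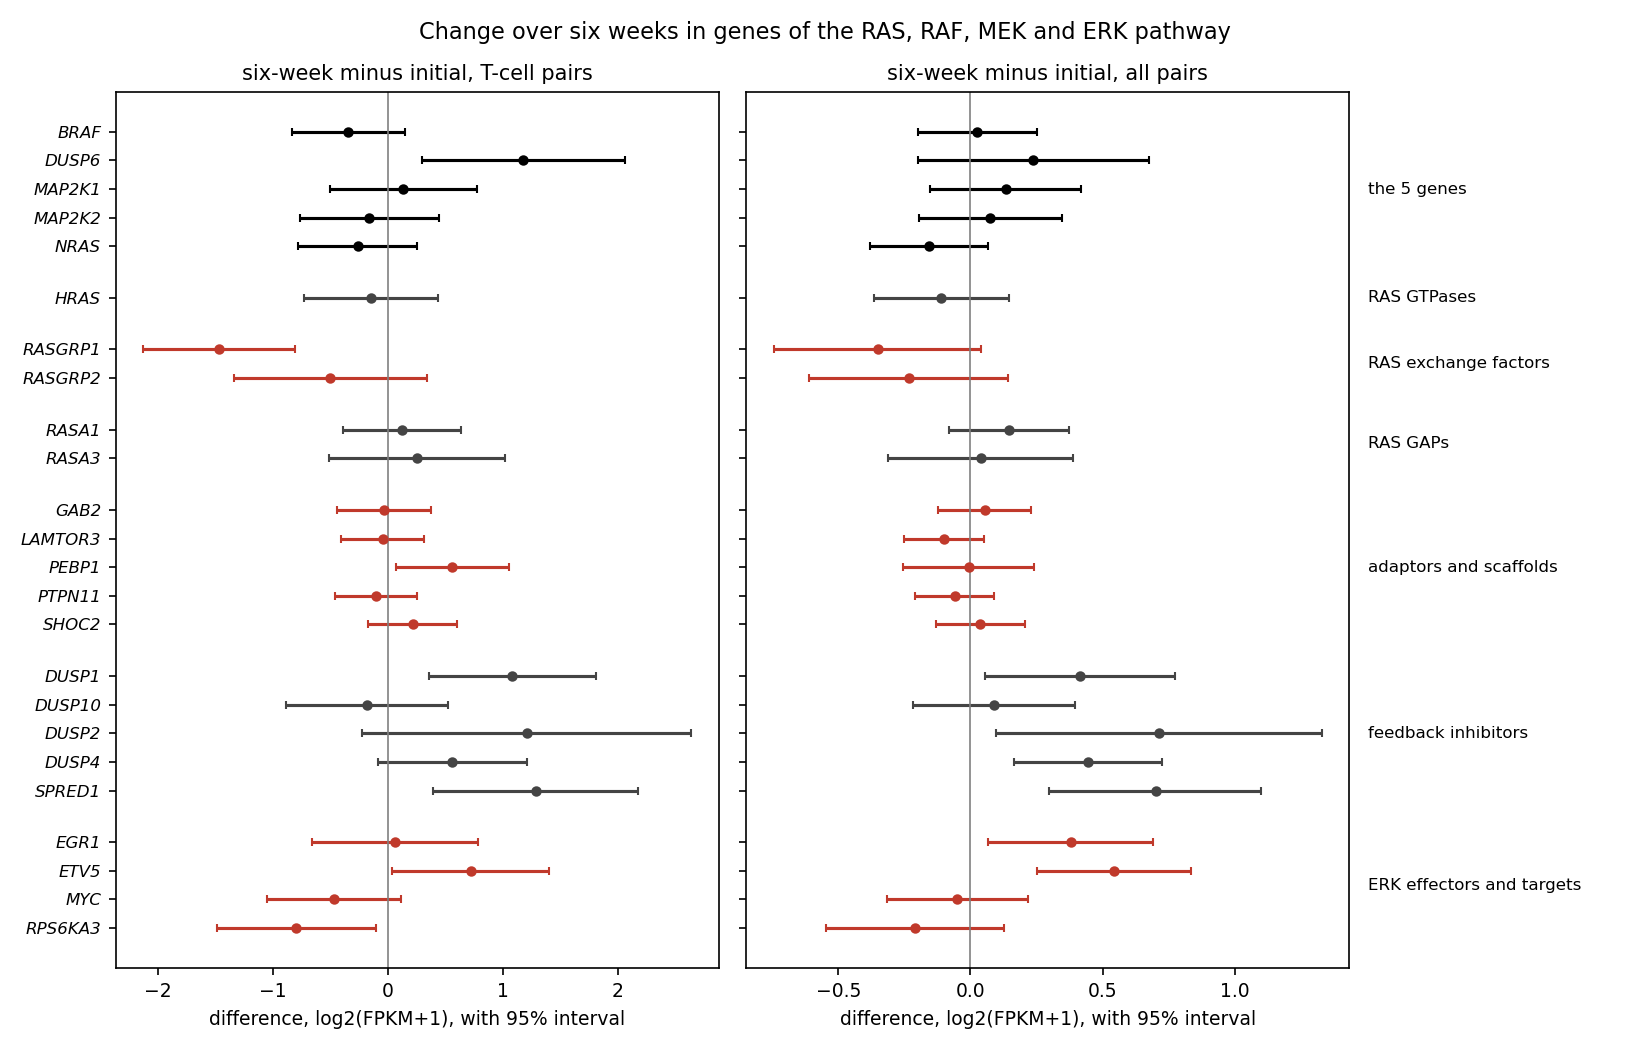
Change between the initial and six-week nodes (six-week minus initial, log2(FPKM+1), with 95% intervals from limma) of the 5 genes and other genes of the pathway, in 3 T-cell pairs (left) and all 15 pairs (right). Colours only set neighbouring lists apart. The feedback inhibitors SPRED1, DUSP1, DUSP2 and DUSP4 and the target gene ETV5 lie above 0 in both, and no gene shown passed an adjusted p of 0.05.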

How the data were processed

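The members and gene lists were chosen with earlier results of these data known. RNA of fine needle aspirates from 15 dogs was sequenced at 2 timepoints (30 libraries). The processing notes of the submitters name HISAT2 2.1.0, StringTie 1.3.3 and CanFam3.1. FPKM per gene, as deposited by the authors, is scaled by transcript length and depth. Counts per gene, as deposited, are unscaled whole numbers. Libraries were paired by the dog number in their labels, and dog 031_032 was paired by elimination. Same-dog libraries deviated together, with a median correlation of 0.521 and a lowest of −0.0564, above 0.1 in 13 of 15 dogs. The exceptions were dogs 036 (−0.0564) and 025 (0.0799). In 13 of 15 dogs the initial library was closest to its own six-week library among dogs of that label. In dogs 036 and 037 it was closer to that of another dog. Replicate pairs were checked for copies on the counts of all 30 libraries. In 68 pairs compared, chi-square over its degrees of freedom was at least 49.6, so no copy was seen. A pair that joins a dog whose counts followed FPKM to a dog whose counts did not would differ even if copied. For such pairs the check cannot decide.

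Genes with a mean FPKM above 1 (14257) were tested on log2(FPKM+1) with limma 3.58.1 (R 4.3.3) with an intensity trend, with dog as a block for changes over time, and Benjamini-Hochberg adjustment at 0.05. Alternatives on the counts of 9 dogs were edgeR 4.0.16 (mean CPM above 1) and DESeq2 1.42.0 (no filter on low values before the fit). DESeq2 therefore tested more genes, 31599 in changes over time. Its calls went mostly up, with 2479 of 3374 in T-cell pairs and 3299 of 3832 over all pairs. Other alternatives were a pseudocount of 0.1, no filter, other scalings, no trend, no block, and libraries left out. The fits were tested on simulated data. Of true differences of 1 on the log2 scale, limma recovered 15% between T-cell and B-cell nodes initially and 19% at 6 weeks. Over time it recovered 32% in T-cell, 69% in B-cell and 47% in Unknown pairs, and 90% over all pairs. For the difference in change it recovered 20%. A value that did not pass therefore does not show that a difference is absent. Library totals were between 4318394 and 43413353 counts. Nothing in the labels gives separate cultures or repeat aspirates, so each dog is 1 replicate. Named genes were the members, the pathway genes past the test or the 3 with the smallest p, and the 3 genes most like each member. Neighbours of NRAS, marker genes and the chromosome 17 blocks were named after their values were seen. Python 3.11.15 was used for tables and figures. Some genes that these rules would name are not reported here.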

Additional observations from a re-analysis of the deposited data

Results flagged for a closer look

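Of 30 sets of member levels or changes in B-cell or Unknown dogs, 4 had a library far from the rest of its group by Dixon's ratio at the 95% level, which flags about 1 in 20 sets by chance. NRAS of dog 030 was highest in initial B-cell nodes at 242 FPKM. MAP2K1 of dog 029 was highest in the same group at 33.3 FPKM, in the B-cell labelled node with a T-cell score of 6.09. BRAF of dog 035 was lowest of the six-week Unknown nodes at 5.71 FPKM. The MAP2K2 change of dog 033 was the lowest of the B-cell pairs at −1.02, in the dog whose six-week library lay low as a whole.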

How the results depend on the processing

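Of 690 alternative values of the 5 genes, 609 kept direction and side of the threshold, 75 turned sign, 6 newly passed and 0 were lost. Of the 75 that turned, 70 had a reported value under 1 SE, and 0 passed an adjusted p of 0.05. The fit with no replicate block (dog left out) changed no call of a member and called 0 genes in each change over time. The cause of the shifts below was not tested. Fits on the 6 dogs whose counts did not follow FPKM hold 1 T-cell dog (028), which is assumed to vary like the other dogs, so their T-cell values describe that dog.

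The 49 genes called between T-cell and B-cell nodes initially became 6 with no filter, 22 with TPM scaling, 260 with median-ratio scaling, 5 with T-cell and B-cell libraries only, 3446 without dogs 029 and 038, 15 in the 9 dogs whose counts followed FPKM, 2 by edgeR and 1461 by DESeq2, and 1 to 2296 with 1 dog left out. At 6 weeks the 0 became 11 without dogs 029 and 038, 12 by DESeq2, and 0 to 5 with 1 dog left out. Over all pairs it became 3054 with no filter and 3832 by DESeq2, in B-cell pairs 1 and in Unknown pairs 100 by DESeq2. In T-cell pairs it became 13 with a pseudocount of 0.1, 1 with TPM, 70 in the 9 dogs, 7 in the 6, 17 by edgeR, 3374 by DESeq2, and 0 to 1491 with 1 dog left out. For the difference in change it became 4 with a pseudocount of 0.1, 9 in the 9 dogs, 9 by edgeR, 874 by DESeq2, and 0 to 612 with 1 dog left out. Except in T-cell pairs, numbers of genes called in the other 6 dogs are not given, since those fits hold 1 T-cell dog. The number given for T-cell pairs rests on that dog alone.

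Signs turned as follows. Without dogs 029 and 038, T-cell minus B-cell was 0.16 for NRAS and −0.039 for BRAF initially, and 0.016 for NRAS and 0.014 for DUSP6 at 6 weeks, while MAP2K1 was −0.13 in T-cell pairs and −0.12 in the difference in change. In the 9 dogs, T-cell minus B-cell was 0.23 for NRAS and 0.0028 for MAP2K2 initially and 0.14 for NRAS at 6 weeks, and changes were −0.0195 for MAP2K2 over all pairs, 0.21 for MAP2K1 in B-cell pairs, 0.14 for DUSP6 in Unknown pairs and −0.016 for MAP2K1 in the difference in change. In the 6 dogs, T-cell minus B-cell was −0.47 for BRAF and 0.17 for DUSP6 initially and 0.0627 for DUSP6 at 6 weeks. Changes there were −0.0515, −0.21 and −0.22 for BRAF, MAP2K1 and DUSP6 over all pairs, 0.22 and −0.16 for MAP2K2 and DUSP6 in B-cell pairs, 0.40 and −0.26 for the same genes in T-cell pairs, 0.17 and −0.0588 for NRAS and MAP2K1 in Unknown pairs, and 0.0056, 0.18 and −0.11 for NRAS, MAP2K2 and DUSP6 in the difference in change. By edgeR, NRAS was 0.24 initially and 0.039 at 6 weeks, MAP2K2 −0.0927 over all pairs, MAP2K1 0.21 in B-cell pairs and −0.0548 in the difference in change, and DUSP6 0.0023 in Unknown pairs. By DESeq2, NRAS was 0.25 and 0.0842, MAP2K2 −0.0401, MAP2K1 0.23 in B-cell pairs and DUSP6 0.06004 in Unknown pairs. TPM scaling gave −0.0702 for BRAF and −0.0065 for MAP2K2 over all pairs, −0.0466 for DUSP6 in B-cell pairs, and −0.15 in T-cell pairs and −0.0215 in the difference in change for MAP2K1. Median-ratio scaling gave 0.0698 for DUSP6 at 6 weeks, and leaving out the pair made by elimination gave 0.12 for NRAS in Unknown pairs.

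With 1 dog left out, T-cell minus B-cell ran initially from −0.30 to 0.16 for NRAS, −0.12 to 0.36 for BRAF and −0.46 to 0.23 for MAP2K2, and at 6 weeks from −0.38 to 0.0315 for NRAS and −0.28 to 0.26 for DUSP6. Over all pairs BRAF ran from −0.0261 to 0.0632. In B-cell pairs BRAF ran from −0.0264 to 0.18, MAP2K1 from −0.19 to 0.10, MAP2K2 from −0.0625 to 0.17 and DUSP6 from −0.11 to 0.15. In T-cell pairs MAP2K1 ran from −0.13 to 0.34 and MAP2K2 from −0.44 to 0.20. In Unknown pairs NRAS ran from −0.0921 to 0.12 and DUSP6 from −0.16 to 0.15. The difference in change ran from −0.20 to 0.0812 for NRAS, −0.0834 to 0.39 for MAP2K1 and −0.44 to 0.20 for MAP2K2. The T-cell groups held 3 dogs each, and with 1 of them left out the spread was taken from all dogs in the fit.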
